A study of Bos taurus with 8 samples.

Results

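The HIF factors and a group of hypoxia targets outside glycolysis were described in bovine embryonic stem cells (bESCs) in low oxygen, on feeders and without them. The 10 genes were taken by name from the 32640 genes listed: the HIF alpha subunits HIF1A and EPAS1, their negative regulators VHL, EGLN1 and EGLN3, and the targets BNIP3, VEGFA, ADM, NDRG1 and ANKRD37. Sequencing covered 4 bESC lines (A, C, D and E), all of XX genotype and derived from early or full blastocysts. Each line gave 1 library on MEF (irradiated mouse embryonic fibroblasts of the CF1 strain, a feeder layer) at passage 15 to 17 and 1 library in feeder-free conditions on vitronectin (VTN, a coating matrix) at passage 20 to 22. The lines were derived on MEF in normoxia and adapted to 5% O2 over 5 passages on MEF, before the move to vitronectin. All 8 libraries came from cells in 5% O2, so oxygen itself was not compared here. Matrix and passage changed together and cannot be told apart. The libraries on MEF may also hold RNA of the mouse feeders, and according to the methods reads seen in MEF alone were subtracted from them. The part of feeder RNA and of this subtraction in the differences given below was not tested. The sample titles carry the same medium name in both conditions, whereas the methods add Activin A in feeder-free culture only. In bulk RNA, fewer cells expressing a gene and less RNA per cell cannot be told apart.

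HIF is a transcription factor made of an oxygen-labile alpha subunit (HIF1A or EPAS1) and a stable partner, ARNT. When oxygen is plentiful, the prolyl hydroxylases encoded by EGLN1, EGLN2 and EGLN3 modify the alpha subunit, VHL recognises the modified protein, and the proteasome destroys it. In low oxygen the alpha subunit escapes and switches on genes for glycolysis, blood vessel growth, mitochondrial turnover and, as feedback, the hydroxylases EGLN1 and EGLN3 themselves. The alpha subunits are controlled mainly as proteins, which RNA counts do not measure.

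Total counts ranged from 44268717 to 54296425 on MEF and from 49671478 to 102351560 in feeder-free conditions, where the largest total was that of line D. The 6 pluripotent cell markers (POU5F1, SOX2, NANOG, SALL4, LIN28A and LIN28B) were detected in every library. Their summed level was 4012 to 4508 CPM (counts scaled to the size of each library by TMM) on MEF and 3496 to 3624 CPM in feeder-free conditions. All 6 had a log2 fold change below 0, feeder-free over MEF, with a median of -0.32. Of the 6, 5 were lower in all 4 lines, beside 20.7 percent of all tested genes. With or without cell line as a term, 0 of the 6 passed the thresholds given below. The 16 fibroblast markers summed to 379 to 495 CPM on MEF, and to 208 CPM in line A, 803 CPM in line C, 1220 CPM in line D and 354 CPM in line E in feeder-free conditions. FAP and TWIST2 had a count of 0 in all 4 feeder-free libraries, and no fibroblast marker was at 0 in all 4 libraries on MEF. Of the 14 fibroblast markers tested, COL3A1 and POSTN were higher and COL1A2 and PRRX1 lower in feeder-free conditions in the fit with cell line as a term, which called 5.52 percent of all tested genes higher and 4.53 percent lower. The part of these markers, and of the depth of line D, in the differences given below was not tested, except where a value without a library is given.

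In feeder-free conditions, transcripts of the negative regulators VHL and EGLN1 and of the mitophagy gene BNIP3 fell when each line was compared with itself. None of the genes tested was called higher in either fit, and none was called lower in the unpaired fit. Of the 10 genes, 9 passed the filter on low counts, and EPAS1 did not. With the libraries treated as unpaired, 0 of the 9 passed both an adjusted p under 0.05 and a change of at least 1.5-fold in edgeR's quasi-likelihood test, against 1.73 percent of the 15744 genes tested, 0.724 percent higher and 1.00 percent lower. HIF1A, VHL, EGLN1 and BNIP3 had an unadjusted p under 0.05, 4 of 9, beside 21.6 percent of all tested genes. Other unpaired tests differed: DESeq2 called VHL and EGLN1 lower (3.28 percent of all genes), edgeR's likelihood ratio test called EGLN1 (2.47 percent), a minimum of 10 counts in every library also gave EGLN1 (1.53 percent), and limma-voom called 0 of the 9 (0.953 percent).

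With cell line as a term, so that each line is its own control, edgeR's quasi-likelihood test called 3 of the 9 lower (VHL, EGLN1 and BNIP3) and 0 higher, beside 4.53 percent of all tested genes lower and 5.52 percent higher. Their calls depended in part on which lines were present. Without line A, VHL and EGLN1 were called (4.65 percent of all genes lower), and the same pair without line E (3.16 percent). Without line C the calls were VHL, EGLN1, BNIP3 and ANKRD37 (3.13 percent), and without line D they were EGLN1, EGLN3 and BNIP3 (2.31 percent). DESeq2 with the line term, a setting chosen after the data were seen, called VHL, EGLN1, BNIP3 and ANKRD37 (5.34 percent).

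The median log2 fold change of the 9 genes, feeder-free over MEF, was -0.44 in the unpaired fit and -0.55 with the line term, beside 0.01 for all tested genes in both fits. Of the 9, 7 had a log2 fold change below 0, and ADM and NDRG1 lay above 0. HIF1A, VHL, EGLN1, BNIP3 and VEGFA were lower in feeder-free conditions in all 4 lines, 5 of 9 genes, beside 20.7 percent of all tested genes, and 0 of 9 were higher in all 4, beside 20.2 percent. For HIF1A, EGLN1 and BNIP3, 3 of 9, every feeder-free library lay below every library on MEF, beside 8.36 percent of all tested genes, and for 0 of 9 above, beside 6.21 percent. These genes and the lists below were chosen with earlier results of these data known. Setting them beside all genes, here and below, is therefore description and not a test of the group. By line, the median log2 ratio of the 9 genes was -0.52 in A, -0.39 in C, -0.81 in D and -0.72 in E.

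**Figure D1:**
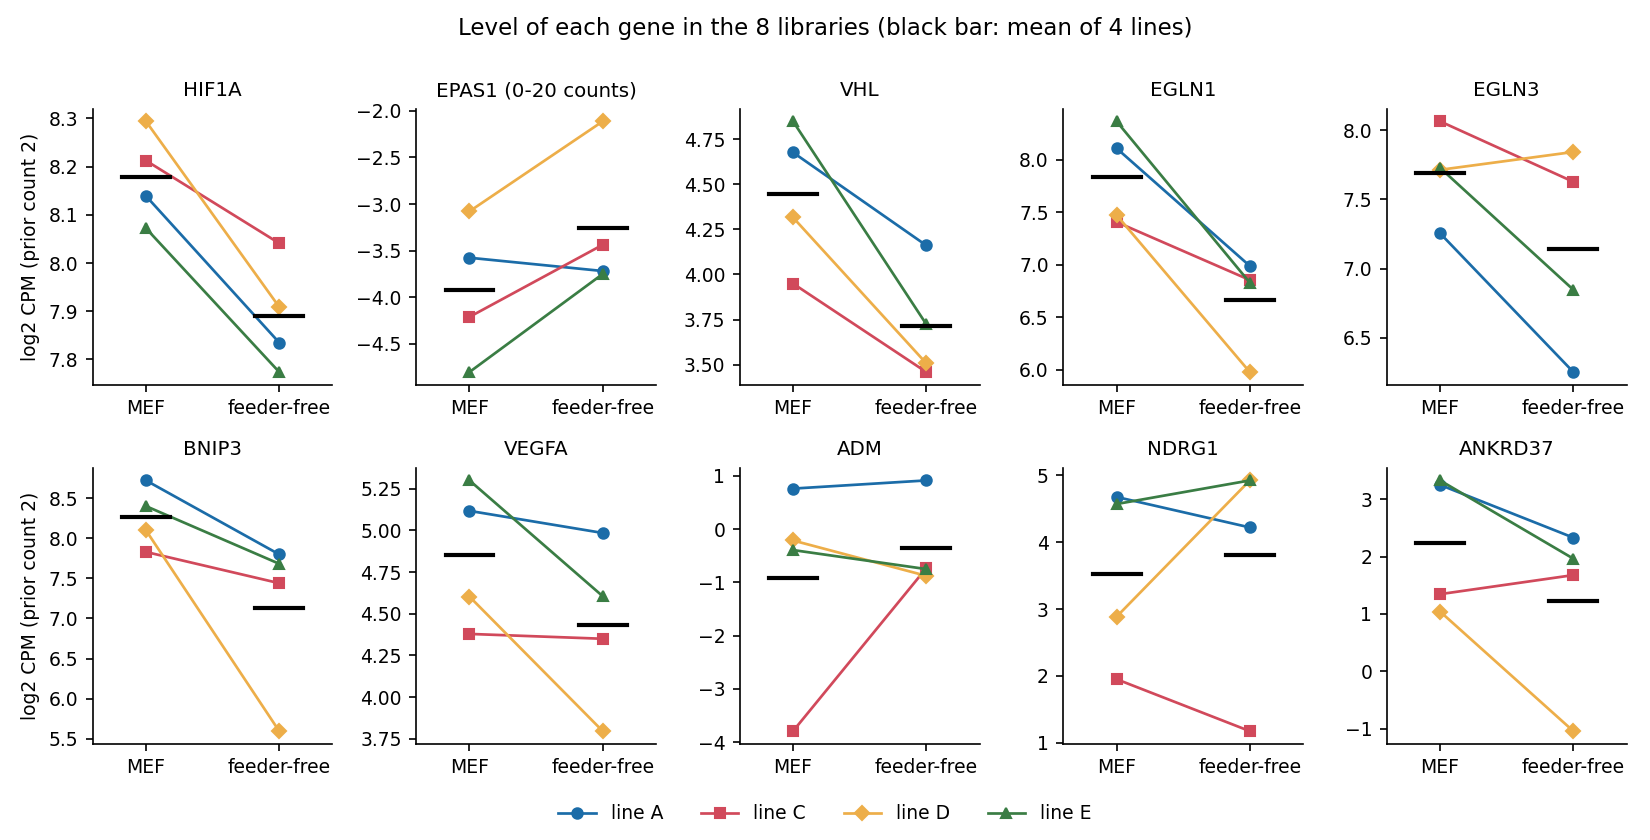
Level of each of the 10 genes as log2 CPM (y axis) on MEF and in feeder-free conditions (x axis), with each line joined by a thin line and black bars for the mean of 4 libraries. The 4 feeder-free libraries lie below the 4 on MEF for HIF1A, EGLN1 and BNIP3, with line D lowest for EGLN1 and BNIP3, whereas the conditions overlap for the other genes.

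HIF1A, the alpha subunit found in nearly all cell types, was well expressed in every library, with 11372 to 24589 counts. On MEF its level was 282 CPM in line A, 297 in C, 314 in D and 269 in E, and in feeder-free conditions 228, 263, 240 and 219 CPM in the same order. The 2 groups did not overlap, and all 4 lines were lower in feeder-free conditions, by little. Levels averaged 290.4 ± 19.3 CPM (SD, n = 4) with feeders and 238 ± 19.2 CPM (SD, n = 4) without, a log2 fold change of -0.29 (standard error, SE, 0.11; adjusted p = 0.178), and of -0.29 with the line term (SE 0.10, adjusted p = 0.0744). HIF1A therefore passed neither fit. It lies on chromosome 10 from 73836447 to 73881302 (build ARS-UCD2.0, as for all coordinates below) and overlaps the annotated long noncoding RNA LOC107132877, and since the strand used in counting is not stated, reads of the pair cannot be told apart.

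EPAS1, which encodes HIF-2 alpha and is best known from endothelium, lies on chromosome 11 from 28735330 to 28825665 and was near the limit of detection. Its counts on MEF were 2 in line A, 1 in C, 4 in D and 0 in E, and in feeder-free conditions 2, 3, 20 and 2. The library with 20 counts, line D in feeder-free conditions, was also the deepest, and stood at 0.195 CPM. The other 7 libraries were between 0 and 4 counts. EPAS1 was left out of both fits, since it did not pass the filter on low counts.

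Within each library, the log2 ratio of HIF1A to EPAS1 counts (with 0.5 added to each) was taken without scaling between libraries. Where EPAS1 counts are near 0, as in line E on MEF with 0, the added 0.5 makes this ratio depend on depth. This ratio was 12.97 ± 1.27 (SD, n = 4) on MEF and 11.62 ± 0.93 (SD, n = 4) in feeder-free conditions, a difference of -1.34 that did not pass the test (two-sided exact permutation test, p = 0.200, 0.4 after adjustment over 2 ratios). The smallest p that 4 against 4 libraries allow is 0.0286. Within lines the ratio was lower without feeders in 4 of 4, with differences of -0.05 in A, -1.45 in C, -1.49 in D and -2.38 in E, and the exact test within lines gave p = 0.125, the smallest that 4 pairs allow. The ratio rests on the 0 to 20 counts of EPAS1, and a change in the balance of the alpha subunits was not detectable at this depth.

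VHL encodes the substrate-recognition part of the ubiquitin ligase that marks hydroxylated HIF alpha for destruction, and lies on chromosome 22 from 16714931 to 16719806. On MEF it was at 25.5 CPM in line A, 15.4 in C, 19.9 in D and 28.8 in E, and in feeder-free conditions 17.9, 10.96, 11.3 and 13.2 CPM. Each line was lower in feeder-free conditions, while the groups overlapped because line A without feeders lay above line C on MEF. Levels averaged 22.4 ± 5.94 CPM (SD, n = 4) with feeders and 13.3 ± 3.17 CPM (SD, n = 4) without. The unpaired log2 fold change was -0.75 (SE 0.24, adjusted p = 0.111). With the line term VHL fell 1.67-fold, a log2 fold change of -0.74 (SE 0.15, adjusted p = 0.0133). Without line D the paired log2 fold change was -0.71 with an adjusted p of 0.0614, and VHL was not called.

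EGLN1, also called PHD2, is the main oxygen-sensing prolyl hydroxylase of HIF in most cells and is itself a HIF target. It lies on chromosome 28 from 4087440 to 4150653. Its level on MEF was 277 CPM in line A, 169.8 in C, 178 in D and 330.4 in E, and in feeder-free conditions 127, 116, 62.9 and 114 CPM. The groups did not overlap, and line D without feeders was lowest of all 8 libraries. Levels averaged 239 ± 78.1 CPM (SD, n = 4) with feeders and 105 ± 28.5 CPM (SD, n = 4) without. The unpaired log2 fold change was -1.19 (SE 0.28), short of the threshold with an adjusted p of 0.0567. With the line term EGLN1 fell 2.27-fold, a log2 fold change of -1.18 (SE 0.16, adjusted p = 0.00266). It remained called with each line left out in turn, at paired log2 fold changes of -1.37 to -1.05, the only one of the 9 genes that did.

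EGLN3, or PHD3, is the hydroxylase known for strong induction by low oxygen, and lies on chromosome 21 from 44387137 to 44416154. Its level on MEF was 153 CPM in line A, 267 in C, 209.8 in D and 212 in E, and in feeder-free conditions 76.3, 198, 229 and 115 CPM. Lines A, C and E were lower without feeders and line D was slightly higher, and the groups overlapped. Levels averaged 210.5 ± 46.9 CPM (SD, n = 4) with feeders and 155 ± 71.1 CPM (SD, n = 4) without, with log2 fold changes of -0.44 in the unpaired fit (SE 0.32, adjusted p = 0.477) and -0.55 with the line term (SE 0.17, adjusted p = 0.0596). Without line D, the paired log2 fold change was -0.77 with an adjusted p of 0.0204, past the threshold.

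The log2 ratio of EGLN3 to EGLN1 counts within a library was -0.15 ± 0.72 (SD, n = 4) on MEF and 0.48 ± 1.11 (SD, n = 4) in feeder-free conditions, a difference of 0.63 that was within the spread between libraries (two-sided exact permutation test, p = 0.4, also 0.4 after adjustment). The ratio was higher without feeders in 4 of 4 lines, by 0.12 in A, 0.12 in C, 1.63 in D and 0.66 in E. The exact test within lines again gave the smallest possible p, 0.125. Without the feeder-free library of line D the difference was 0.17.

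**Figure D2:**
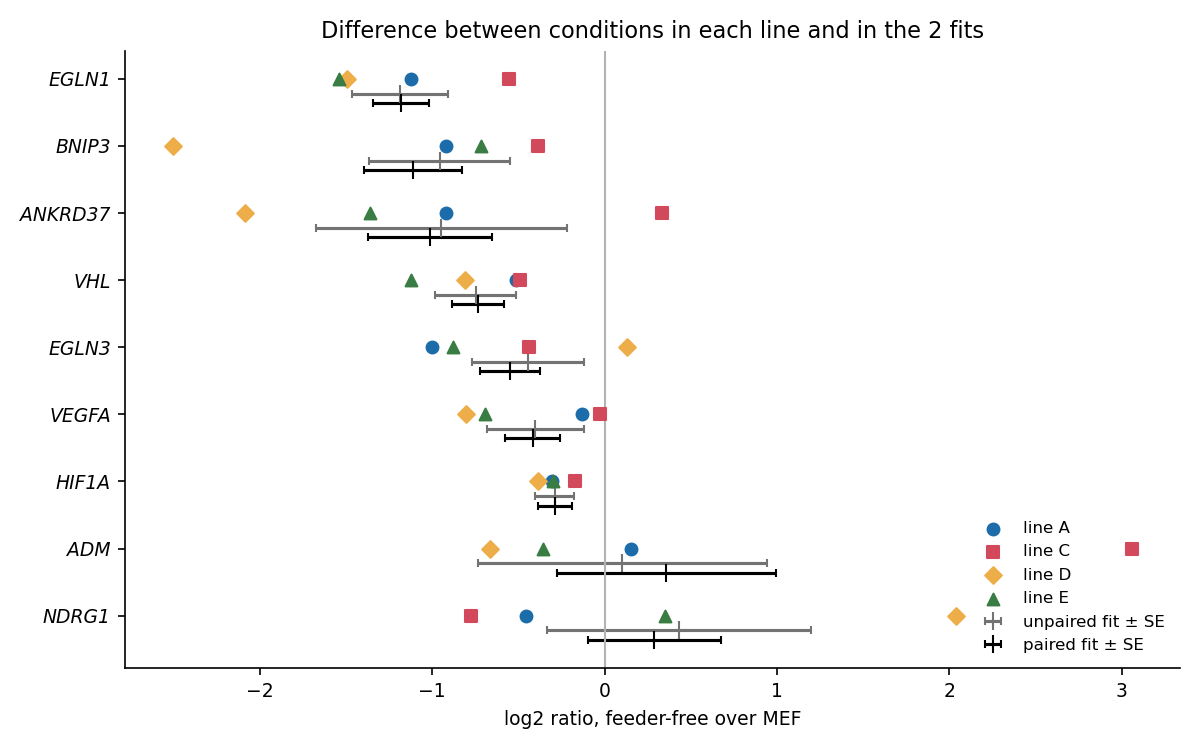
Log2 ratio of feeder-free over MEF within each line (x axis) for the 9 genes tested (y axis), with the fitted log2 fold change and its SE from the unpaired (grey) and the paired fit (black). All 4 lines lie below 0 for HIF1A, VHL, EGLN1, BNIP3 and VEGFA, and the lines spread to both sides of 0 for EGLN3, ADM, NDRG1 and ANKRD37.

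BNIP3 encodes a mitochondrial outer membrane protein that recruits the autophagy machinery, and is among the targets HIF induces in many cell types. It lies on chromosome 26 from 51221338 to 51225301. Levels on MEF were 421 CPM in line A, 227 in C, 274 in D and 337 in E, and in feeder-free conditions 222, 173, 48.3 and 205 CPM. The groups did not overlap, by a narrow margin between line A without feeders and line C on MEF, and line D without feeders lay far below the rest. Levels averaged 315 ± 84.1 CPM (SD, n = 4) with feeders and 162 ± 78.7 CPM (SD, n = 4) without. The unpaired log2 fold change was -0.96 (SE 0.41, adjusted p = 0.213). With the line term BNIP3 fell 2.16-fold, a log2 fold change of -1.11 (SE 0.29, adjusted p = 0.0292). Without line D the paired log2 fold change was smaller, -0.68, and the adjusted p was 0.0314, while without line A or line E the adjusted p was 0.0588 and 0.0583, past 0.05.

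VEGFA, the growth factor that drives blood vessel formation, lies on chromosome 23 from 17281915 to 17297193. On MEF it reached 34.7 CPM in line A, 20.8 in C, 24.3 in D and 39.3 in E, and in feeder-free conditions 31.6, 20.4, 13.9 and 24.3 CPM. Lines A and C differed little between conditions, and lines D and E were lower without feeders. Levels averaged 29.8 ± 8.70 CPM (SD, n = 4) with feeders and 22.5 ± 7.43 CPM (SD, n = 4) without, with log2 fold changes of -0.40 in the unpaired fit (SE 0.28, adjusted p = 0.454) and -0.42 with the line term (SE 0.16, adjusted p = 0.102).

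ANKRD37, a small ankyrin-repeat gene known as a direct HIF target, lies on chromosome 27 from 15651386 to 15654052. Its level on MEF was 9.48 CPM in line A, 2.51 in C, 2.02 in D and 10.01 in E, and in feeder-free conditions 5.00, 3.16, 0.4495 and 3.87 CPM. Lines A, D and E were lower without feeders and line C was higher, around averages of 6.01 ± 4.33 CPM (SD, n = 4) with feeders and 3.12 ± 1.93 CPM (SD, n = 4) without. The log2 fold change was -0.95 in the unpaired fit (SE 0.73, adjusted p = 0.4995) and -1.01 with the line term (SE 0.36, adjusted p = 0.0828). Without line C the paired log2 fold change was -1.44 with an adjusted p of 0.0304, past the threshold.

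NDRG1, a stress-responsive gene that also responds to differentiation signals, lies on chromosome 14 from 8073250 to 8129607. Levels on MEF were 25.5 CPM in line A, 3.83 in C, 7.35 in D and 23.7 in E, and in feeder-free conditions 18.6, 2.22, 30.3 and 30.3 CPM. Line C was low in both conditions, line D was higher without feeders by 2.04 on the log2 scale, and line A was lower. Levels averaged 15.1 ± 11.1 CPM (SD, n = 4) with feeders and 20.3 ± 13.3 CPM (SD, n = 4) without. The log2 fold change was 0.43 in the unpaired fit (SE 0.77, adjusted p = 0.803) and 0.29 with the line term (SE 0.39, adjusted p = 0.650). Without line D the paired log2 fold change was -0.27, of the opposite sign.

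ADM, which encodes the vasodilating peptide adrenomedullin, lies on chromosome 15 from 42377559 to 42379867 and overlaps the annotated microRNA gene MIR6518. It was expressed at a low level, with 69 counts in line A, 2 in C, 40 in D and 32 in E on MEF, and 92, 30, 52 and 29 counts in feeder-free conditions. Line A was highest in both conditions, and line C on MEF was under the 3 counts taken as the floor of a library. Levels averaged 0.811 ± 0.664 CPM (SD, n = 4) with feeders and 0.869 ± 0.652 CPM (SD, n = 4) without, with log2 fold changes of 0.10 in the unpaired fit (SE 0.84, adjusted p = 0.964) and 0.36 with the line term (SE 0.64, adjusted p = 0.741). Without line C the paired log2 fold change was -0.29, of the opposite sign.

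The 9 tested genes differed in how far condition and line accounted for their spread over the 8 libraries. As a share of the sum of squares of log2 CPM, in which condition has 1 degree of freedom and line has 3, condition took 71.5 percent for HIF1A, 67.9 percent for EGLN1, 57.9 percent for VHL and 41.3 percent for BNIP3. The median over all tested genes was 18.8 percent for condition and 49.5 percent for line. Line took 83.1 percent for NDRG1, 73.7 percent for ANKRD37, 66.0 percent for ADM, 65.1 percent for VEGFA and 60.8 percent for EGLN3. The genes thus spanned a range from HIF1A, with little difference between lines, to NDRG1, for which condition took 1.11 percent.

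**Figure D3:**
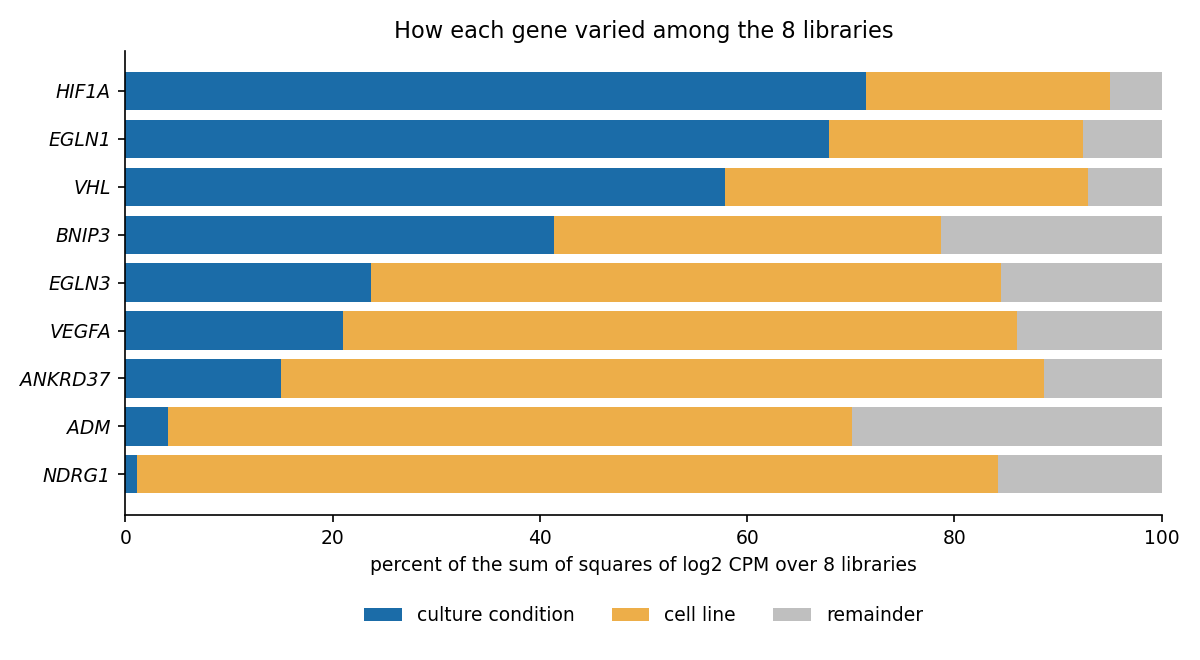
Share of the sum of squares of log2 CPM over 8 libraries (x axis, percent) for each of the 9 tested genes (y axis). Each bar is divided into the parts taken by condition, by line and by the remainder. Condition takes the largest share for HIF1A, EGLN1, VHL and BNIP3, and line for the other 5 genes.

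After the values were seen, a shared order of the lines on MEF was counted. Lines A and E both lay above lines C and D on MEF for 6 of the 9 genes (VHL, EGLN1, BNIP3, VEGFA, NDRG1 and ANKRD37), beside 26.7 percent of all tested genes. In feeder-free conditions the same held for 4 of the 9 (VHL, BNIP3, VEGFA and ANKRD37), beside 26.3 percent of all tested genes. These shares describe 4 lines, and no test was made of them.

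For other genes that control HIF, the counts of calls were near the shares of all genes. Of 14 such genes (ARNT, ARNT2, HIF3A, HIF1AN, EGLN2, ELOB, ELOC, CUL2, RBX1, CITED2, EP300, CREBBP, SIAH1 and SIAH2), 0 were called in the unpaired fit, beside 1.73 percent of all genes. An unadjusted p under 0.05 was reached by 3 of the 14, beside 21.6 percent, and DESeq2 called 1, beside 7.70 percent. In 5 of the 14 all 4 lines were lower in feeder-free conditions, beside 20.7 percent, and in 4 of the 14 the groups did not overlap and feeder-free was lower, beside 8.36 percent. The line term gave 1 lower, beside 4.53 percent, and 0 higher, beside 5.52 percent. The gene called was HIF3A, an alpha subunit whose shorter forms are known to restrain HIF. It fell from 6.89 ± 2.60 CPM (SD, n = 4) with feeders to 3.09 ± 1.09 CPM (SD, n = 4) without them, by a paired log2 fold change of -1.17 (SE 0.25, adjusted p = 0.0158), beside -1.16 in the unpaired fit (adjusted p = 0.102). HIF3A lies on chromosome 18 from 53558971 to 53590524. Without line D or without line E, the paired fit called 0 of the 14, beside 4.68 and 7.37 percent of all genes. The median log2 fold change of the 14 was -0.00 in the unpaired fit. The HIF partner ARNT had -0.32, the third hydroxylase EGLN2 had 0.18, and the genes of the ligase that works with VHL had 0.09 (ELOB), 0.17 (ELOC), -0.03 (CUL2) and 0.04 (RBX1), none of them called. The fall of VHL and EGLN1 transcripts in the paired fit was not accompanied by calls in the other ligase genes or in EGLN2.

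Among 40 other hypoxia targets outside glycolysis, of which 39 were tested (COX4I2 was not), the calls went in both directions. In the unpaired fit AK4 fell and TFRC rose, 2 of 39, beside 1.00 percent of all genes lower and 0.724 percent higher, and 18 of 39 had an unadjusted p under 0.05, beside 21.6 percent. AK4, a mitochondrial adenylate kinase, fell from 362 ± 81.9 CPM (SD, n = 4) with feeders to 160.5 ± 36.03 CPM (SD, n = 4) without them, by a log2 fold change of -1.17 (SE 0.21, adjusted p = 0.0391). AK4 lies on chromosome 3 from 80156038 to 80327357 and overlaps annotated pseudogenes and a transfer RNA gene, which makes its counts less certain. TFRC (chromosome 1, 70650067 to 70680786), the transferrin receptor for iron uptake, rose from 48.8 ± 8.94 CPM (SD, n = 4) with feeders to 83.7 ± 12.2 CPM (SD, n = 4) without them, by a log2 fold change of 0.78 (SE 0.16, adjusted p = 0.0494). Without feeder-free line A the unpaired fit called 4 of the 39, beside 3.07 percent of all genes. With any of the remaining 7 libraries left out it called 0 of the 39, and at most 6 genes of all those tested, so these fits say nothing particular about the 39. The likelihood ratio test called 12 of the 39 and DESeq2 16, beside 5.32 and 7.70 percent of all genes in either direction.

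With the line term, 14 of the 39 were called lower and 3 higher, beside 4.53 and 5.52 percent of all genes. The 14 included BNIP3L, the close relative of BNIP3 in mitochondrial clearance (paired log2 fold change -0.84), DDIT4, an inhibitor of mTOR signalling (-1.11), and MXI1, a MYC antagonist (-1.13). The histone demethylases KDM4B (-0.69) and KDM4C (-1.12) and the collagen lysyl hydroxylase PLOD1 (-0.73), which like the EGLN enzymes need oxygen and 2-oxoglutarate, also fell. The circadian regulators BHLHE41 (-1.72) and RORA (-1.04) fell, as did AK4 (-1.17), CCNG2 (-1.08), ZNF395 (-1.10), the lipoprotein receptor VLDLR (-0.90), the glycogen branching enzyme GBE1 (-0.69) and the secreted glycoprotein STC2 (-0.74), the last of them lower in 3 of 4 lines. Like AK4, some of these overlap other annotated genes, which makes their counts less certain. GBE1 overlaps a pseudogene, and KDM4C, MXI1, VLDLR and RORA overlap long noncoding RNAs. Called higher were TFRC (0.79), HMOX1, a haem-degrading enzyme that also responds to oxidative stress (1.62), and WSB1, part of a ubiquitin ligase (0.68). The median log2 fold change of the 39 was -0.60 in the unpaired fit and -0.59 with the line term, and by line the median log2 ratio was -0.40 in A, -0.00 in C, -0.78 in D and -0.98 in E. Line C therefore had the median nearest 0, as it had among the 9 genes described above.

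The 22 glycolytic hypoxia targets, listed for comparison, had a median log2 fold change of -0.58 in the unpaired fit and -0.59 with the line term. In the unpaired fit 5 of the 22 were called lower and 0 higher, beside 1.00 and 0.724 percent of all genes. With the line term 9 of the 22 were called lower and 0 higher, beside 4.53 and 5.52 percent. The 9 were SLC2A1, SLC2A3, HK2, PFKL, PFKM, PFKFB3, PGK1, ENO1 and PDK1. Counts are less certain for PFKFB3, which overlaps PRKCQ and a long noncoding RNA, and for PGK1, which overlaps TAF9B. The medians of the 9 HIF factors and targets, of the other targets and of the glycolytic targets all lay below 0, and the differences between the lists were not tested.

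**Figure D4:**
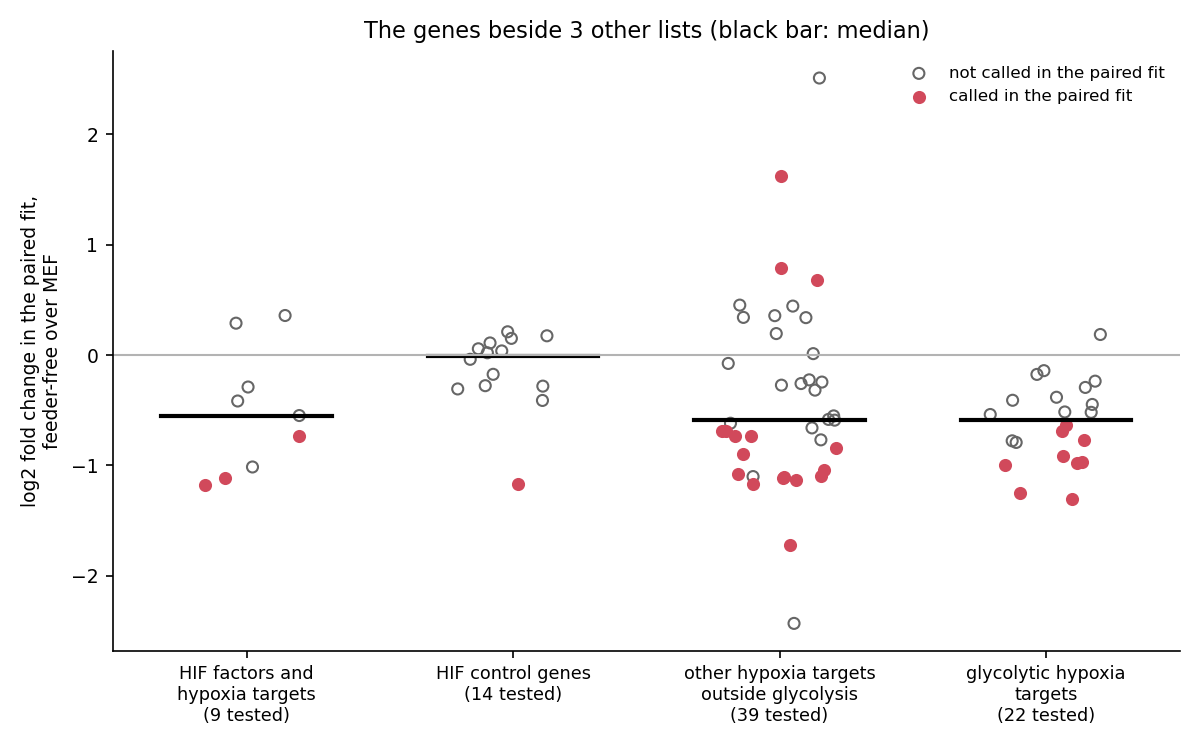
Paired log2 fold change of feeder-free over MEF (y axis) for the tested genes of each list (x axis), with genes called in the paired fit filled in red and a black bar at the median. The medians are -0.55 for the 9 HIF factors and targets, -0.01 for the HIF control genes, -0.59 for the other targets outside glycolysis and -0.59 for the glycolytic targets.

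For HIF1A, EPAS1, VEGFA and BNIP3, the genes nearest in pattern were found as the smallest root mean square difference of log2 CPM, centred on each gene, over the 8 libraries. RBSN (0.028) and UBE3A (0.039) were nearest to HIF1A. LOC112442546 (0.084) and WARS2 (0.113) were nearest to VEGFA, and LOC112443796 (0.214) and TMEM88B (0.219) to BNIP3. CD58 (0.258) and TMTC2 (0.304) were nearest to EPAS1, whose own pattern rests on 0 to 20 counts. The 8 libraries share 4 lines, so their values are not independent points.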

How the data were processed

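RNA of 4 bESC lines, each on MEF and in feeder-free conditions in 5% O2, was sequenced as paired reads from NEBNext Ultra II libraries. The authors deposited raw counts per gene. They trimmed reads with Trimmomatic, mapped them to ARS-UCD2.0 by STAR, dropped optical duplicates (Picard) and poor alignments (samtools), and counted with featureCounts (Subread 1.6.2 in the submitters' processing notes). Whether strand was used, and whether reads or pairs were counted, is not given in the sources used here. Between 69.8 and 75.3 percent of the counts from 1 to 20 were even in each library, and the cause was not tested. According to the methods, reads seen in MEF alone were subtracted from the libraries on MEF. The MEF-only sample was not analysed here, and the RNA extraction differs between the methods (RNeasy) and the labels (Trizol).

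No change was made to the deposited counts. Of 32640 genes, 3 without values were left out, 0 columns were unused, and 30268 genes were matched to RefSeq for coordinates. Transcript lengths were not used here, so levels are not compared between genes. Over the 12 pairs of libraries within a condition, chi-square per degree of freedom was at least 40.8, so no library was a repeat of another. All labels give batch 1.

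Tests were made with edgeR 4.0.16 in R 4.3.3 (filterByExpr, TMM, glmQLFit and glmQLFTest) on condition alone, over 15744 genes with Benjamini-Hochberg adjustment. Adjusted p in the text are from this test or from the same test with the line term. Genes were called at an adjusted p under 0.05 and at least 1.5-fold change. Log2 CPM values had a prior count of 2, and standard errors come from the fold change and its F statistic. The lines were the same in both conditions, so a second fit (replicate block) included the line: deviations from the condition mean correlated at 0.421 to 0.664 within lines and at -0.523 to 0.249 between lines. Count ratios of 2 genes (0.5 added) were compared by exact permutation. The unpaired p-values rest on the spread between libraries within a condition. Those with the line term rest on how far the difference between conditions varied among these 4 lines.

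The alternatives were other scalings and low-count filters, the likelihood ratio test, DESeq2 1.42.0, limma-voom (limma 3.58.1), the line term and leaving out libraries or lines. The fits were tested on simulated data. The 10 genes and the lists were chosen with earlier results of these data known. The genes named are the 10, every gene of the other lists called in either fit, and the 2 nearest in pattern to each of HIF1A, EPAS1, VEGFA and BNIP3. Uncalled HIF control genes, COX4I2 and the cell type markers were named beyond this rule.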

Additional observations from a re-analysis of the deposited data

Results flagged for a closer look

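In 26 groups of 4 libraries, the highest or lowest library was compared with the others by Dixon's test, and 5 groups held a library that stood apart, where chance gives about 1.3. For EGLN1, the feeder-free library of line D was at 5.98 log2 CPM, and the other feeder-free libraries were at 6.83 to 6.99. For BNIP3 the same library was at 5.596 log2 CPM, and the others were at 7.44 to 7.80. The log2 ratio of HIF1A to EPAS1 counts was 10.23 in that library and 11.96 to 12.15 in the others. Its total count was 102351560, and the other 3 had 49671478 to 51320214. For ADM, line A without feeders was at 0.91 log2 CPM, and the others were at -0.88 to -0.73. EGLN1 and BNIP3 stayed called in the paired fit without line D, at log2 fold changes of -1.07 and -0.68. The library of line D was also thinned to a smaller total, a setting chosen after seeing the data. The paired fit then called 3 of the 9 genes lower, beside 4.54 percent of all genes tested. The part of the depth of that library in these values was otherwise not tested.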

How the results depend on the processing

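Of the 9 genes tested, 0 were called lower in the unpaired fit, beside 1.00 percent of all genes. The count was 1 with a minimum of 10 counts (1.53 percent) and 1 with the likelihood ratio test (2.47 percent). It was 2 with DESeq2 (3.28 percent) and 3 with the replicate block, the line term (4.53 percent). Of the HIF control genes, 0 were called, and 1 with DESeq2 and 1 with the replicate block. Of the other targets outside glycolysis, 2 were called, 1 without scaling, 12 with the likelihood ratio test, 16 with DESeq2, 1 with limma-voom and 17 with the replicate block. Of the settings chosen after seeing the data, DESeq2 with the replicate block gave 4, 1 and 19 calls in the 3 lists. The replicate block with the deepest library thinned or with no scaling factors gave 3, 1 and 17 each. In that order, these fits called 12.6, 10.1 and 10.2 percent of all genes in either direction, and 5.34, 4.54 and 3.78 percent lower. Leaving out 1 library or, in the paired fit, 1 line gave 0 to 4, 0 to 1 and 0 to 17 calls, while the calls over all genes ran from 0 to 1651, so these ranges are not particular to the lists.

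Under these omissions the log2 fold change of ADM ranged from -0.57 to 0.78, below 0 without line C on MEF (-0.30), without line A in feeder-free conditions (-0.57) or, paired, without line C (-0.29). That of NDRG1 ranged from -0.27, paired without line D, to 0.81. The cause was not tested. Both count ratios kept their direction in every setting run. With a library left out the smallest possible p was 0.0571, and within lines 0.125, so those settings could not pass 0.05. EPAS1 entered the test only with no filter, where it was not called, and ADM was not tested with a minimum of 10 counts; with at most 20 counts per library, EPAS1 is limited by depth.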
